A study of Mus musculus with 2 samples.

Results

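Expression of 10 genes of BMP and TGF-beta signalling was followed through the cell states of a reprogramming culture at day 16, on the way from fibroblasts to induced pluripotent stem cells (iPSCs). They were the ligand genes Bmp4, Tgfb1, Tgfb2 and Tgfb3, the inhibitory Smad genes Smad6 and Smad7, and the Id genes Id1, Id2, Id3 and Id4. The genes were taken by name, as 10 of the 17408 genes in the table, and all 10 were present. The cells were mouse embryonic fibroblasts carrying STEMCCA, a cassette that expresses Pou5f1, Sox2, Klf4 and Myc when doxycycline is given, and all of them had been induced, so there was no uninduced group. They were grown in mouse embryonic stem cell medium with serum, LIF and ascorbic acid at 50 µg/ml, and were neither sorted nor enriched. Droplet single-cell RNA-seq counted RNA molecules by unique molecular identifiers (UMIs) in 2 libraries of 1 group, called replicate 1 and replicate 2. Per the study, the unsorted populations came from independently made STEMCCA mouse systems, and the system behind each library is not given in the labels. Library was a term in the fits, so the p-values measure how closely differences between groups of cells repeat in these libraries. The variance behind them was moderated over all genes. Technical differences and differences between the mouse systems cannot be told apart in it.

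BMP and TGF-beta proteins are secreted ligands that bind pairs of serine/threonine kinase receptors. BMP receptors pass the signal to Smad1, Smad5 and Smad9, and TGF-beta and activin receptors to Smad2 and Smad3, all of which act with Smad4 in the nucleus. Smad6 and Smad7 are induced by the signal and inhibit it, Smad7 in both branches. Id genes are classical targets of BMP signalling. Id proteins have a helix-loop-helix domain but no basic region, and so hold E proteins such as Tcf3, Tcf4 and Tcf12 off DNA. In mouse embryonic stem cells, BMP in serum and LIF are known to maintain self-renewal together, with Id genes as one output.

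The part of the coding sequence that the 4 Id genes share is shown because it encodes the region through which Id proteins bind E proteins. It is a stretch of 41 codons (123 bases) in exon 1 of each gene, the most alike one in an ungapped comparison of the 4 proteins, and lies in the helix-loop-helix region. Capitals mark the bases identical in all 4 genes, 68 of 123 (55.3%).
Id1: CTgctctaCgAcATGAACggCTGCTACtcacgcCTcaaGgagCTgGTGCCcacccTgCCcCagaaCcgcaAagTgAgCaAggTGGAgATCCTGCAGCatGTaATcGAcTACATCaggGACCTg
Id2: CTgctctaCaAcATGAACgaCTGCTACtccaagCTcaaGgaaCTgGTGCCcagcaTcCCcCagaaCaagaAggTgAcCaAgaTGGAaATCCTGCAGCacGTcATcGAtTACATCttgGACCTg
Id3: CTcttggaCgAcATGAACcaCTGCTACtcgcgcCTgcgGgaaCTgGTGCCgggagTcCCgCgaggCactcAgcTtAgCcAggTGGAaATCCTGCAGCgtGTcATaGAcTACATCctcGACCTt
Id4: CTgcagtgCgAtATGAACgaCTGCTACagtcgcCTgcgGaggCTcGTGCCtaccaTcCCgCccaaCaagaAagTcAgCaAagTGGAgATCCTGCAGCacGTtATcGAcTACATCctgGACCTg
The positions, in GRCm38 with the GENCODE M21 annotation, are chr2:152736512-152736634 on the plus strand for Id1, chr12:25095786-25095908 on the minus strand for Id2, chr4:136143996-136144118 on the plus strand for Id3 and chr13:48261687-48261809 on the plus strand for Id4. Over this stretch Id1 and Id2 were the most alike pair by bases, with 82.1% identical. By residues they tied with Id1 and Id4, each pair with 78% identical. Id3 was the least like the others, with 69.1% of bases identical to Id1, 69.9% to Id2 and 69.1% to Id4.

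Replicate 1 held 3109 cells and 54145377 UMIs (median 15625 per cell), and replicate 2 held 3914 cells and 64654306 UMIs (median 14292 per cell). The libraries shared 12 cell barcodes. Cells were clustered on other genes, leaving out the 10 genes, the pathway list, the sex chromosomes, the factors of the cassette and 5 genes of pluripotency, which gave 16 states, numbered from 0 by size. Of these, 12 had at least 30 cells in both libraries, and every order of states given below is over these 12 alone. State 6 was pluripotent-like, with all 10 of its 10 markers raised (at least 2-fold over the remaining cells), and held 146 cells in replicate 1 and 391 in replicate 2. Its cells were the deepest, with medians of 28768 and 26097 UMIs. States 5, 9 and 10 had 10, 9 and 8 of 11 fibroblast markers raised, and state 5 also had 8 of 8 myofibroblast markers raised, of which state 2 had 4. State 5 was led by Mylk, Prss23 and Igfbp7, state 9 by Spp1, Mmp3 and Col10a1, and state 10 by Eln and Mki67. States 1 (Cenpa, Cenpf) and 10 had 8 of 8 mitosis markers raised, state 6 had 6 of 8, and state 7 (Hist1h1b, Neil3) had 8 of 8 S-phase markers raised. Levels below are UMIs of a gene per 10000 UMIs of the cell, averaged over the cells of a state in a library.

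Pluripotent-like cells held less Id3, Id1, Id2, Tgfb1, Tgfb2 and Tgfb3 and more Smad7 than the rest of the culture, in both libraries. Low levels were not particular to them. The small state 12, with 8 of 11 epithelial markers raised, had 64 cells in replicate 1. There it had Id1 at 0.0407, Tgfb1 at 0.0437, Tgfb2 at 0.011 and Tgfb3 at 0.024. Its Id2 (0.608) and Smad7 (0.087) did not follow the pluripotent-like state. Of the 10 genes, 7 reached a mean level of 0.1 over all cells, and all 7 passed the threshold (limma, Benjamini-Hochberg adjusted p under 0.05), 6 lower and 1 higher. Among all 7131 genes tested, 77.7% passed, 46.2% lower and 31.5% higher, so passing the threshold was the common outcome and the sizes below carry the description. The median log2 fold of the 7 genes was -1.48, against -0.16 over all genes tested. Bmp4, Smad6 and Id4 were below the minimum level and were not part of this test. That minimum is a mean over all cells, most of them outside the pluripotent-like state, so it favours genes that are lower in pluripotent-like cells. Tgfb1, Tgfb2 and Tgfb3, all under 0.1 in pluripotent-like cells, entered through the other cells and could only come out lower. Id2 was in that case by its mean of 0.0997 over the libraries in pluripotent-like cells, though not in replicate 1 (0.143). Neither the counts nor the median of the 7 genes therefore show a decrease of the set.

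**Figure D1:**
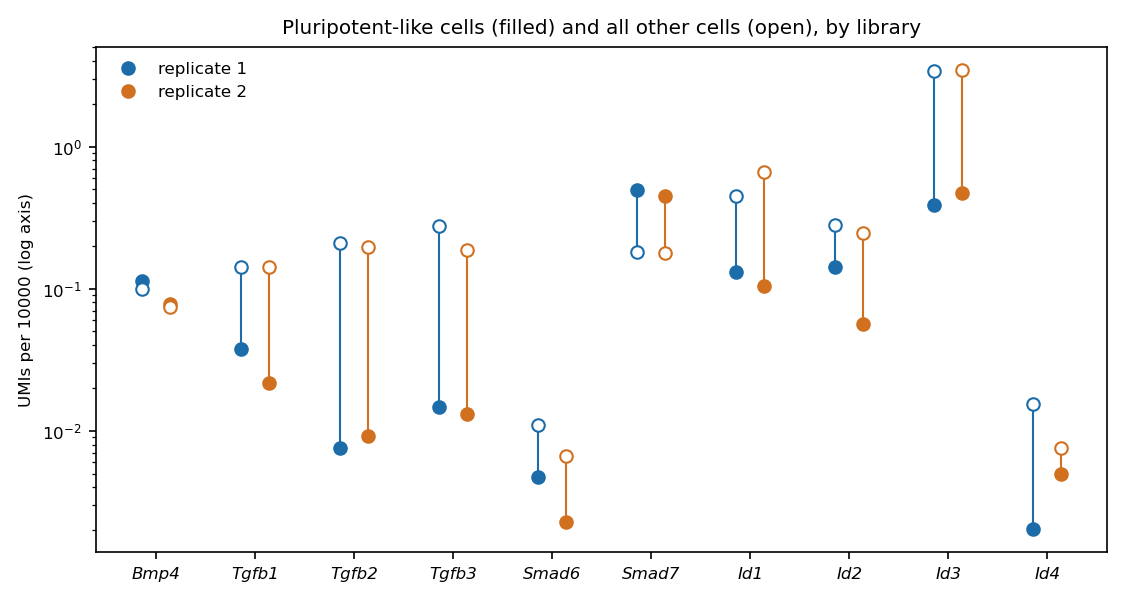
Level of the 10 genes in pluripotent-like cells (filled) and in all other cells (open), in UMIs per 10000 on a log axis, with 1 line per library (blue: replicate 1, orange: replicate 2). Smad7 is the one gene of the 7 tested that is higher in pluripotent-like cells, and for Bmp4 the 2 symbols of each library nearly coincide.

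Of the TGF-beta ligand genes, Tgfb2 was at 0.00756 (replicate 1) and 0.00925 (replicate 2) in the pluripotent-like state, against 0.21 and 0.196 in all other cells. These levels rested on 3 and 9 UMIs in all of the pluripotent-like cells of the 2 libraries. The log2 fold, on the scale of log2(level + 0.1), which understates changes at low levels, was -1.48 (SE 0.09, adjusted p = 7.1e-07, limma), and -3.53 with a pseudocount of 0.01 in place of 0.1. Tgfb3 was at 0.0146 and 0.0132, against 0.274 and 0.186 (log2 fold -1.52, SE 0.11, adjusted p = 1.9e-06, limma). Both genes were far lower in pluripotent-like cells in each library, with no overlap. Tgfb1, the gene of the founding member of the ligand family, was at 0.0379 and 0.0217, against 0.143 in both libraries (log2 fold -0.90, SE 0.09, adjusted p = 2.0e-05, limma). The pluripotent-like state was not the lowest of the 12 for Tgfb1. States 7 (0.0211 and 0.0248) and 11 (0.00574 and 0.0387) had lower means and overlapped it, and state 3 (0.00512 and 0.0174) was below it.

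Among the 11 other states with at least 30 cells in both libraries, the TGF-beta ligand genes had their highest mean in state 9, where 9 of 11 fibroblast markers were raised, except that Tgfb3 was highest in state 5 with summed or thinned UMIs. In the small states, Tgfb1 was higher still in macrophage-like cells (2.59 and 1.27), and in the 16 cells of state 14 in replicate 1 Tgfb1 was at 0.689 and Tgfb2 at 0.642. An F test over these 11 states called all 7 genes tested (limma, adjusted p between 5.3e-11 for Tgfb1 and 4.1e-05 for Id1), where 86.8% of all genes were called. Tgfb1 was highest in state 9, at 0.498 in replicate 1 and 0.422 in replicate 2, followed by states 10, 8 and 5, all at 0.287 or above in both libraries. The next, state 0, had 0.0725 and 0.125, below those 4 states. Tgfb3 was highest in state 9 (0.725 and 0.619) and state 5 (0.754 and 0.553), whose ranges overlapped, and reached 0.506 and 0.399 in state 10. Tgfb2 was also highest in state 9, at 0.509 and 0.438, but its second level was that of state 11, led by Igfbpl1 and Cytl1, at 0.252 and 0.398. States 11 and 8 were not separable for Tgfb2. The range over the states, on the log2 scale, was 2.53 for Tgfb3, 2.33 for Tgfb1 and 1.57 for Tgfb2.

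Bmp4, a BMP ligand gene, had levels in pluripotent-like cells that overlapped those of the rest. They were 0.113 in replicate 1 and 0.0786 in replicate 2 there, and 0.0999 and 0.0746 in other cells. In a fit without the minimum level, the log2 fold was 0.06 (SE 0.04, adjusted p = 0.32, limma). It varied among the other states instead (adjusted p = 4.0e-04 in the F test without the minimum). The highest of the 12 states were state 10 (0.375 and 0.188), state 9 (0.36 and 0.187) and state 5 (0.216 and 0.187), which overlapped one another and were all above the next, state 0, at 0.124 and 0.0738. State 3, led by Tac2, had 0 and 0.0175. In 68 epithelial-like cells no Bmp4 UMI was found among 1589048, which allows a level of up to 0.0189, counting error only.

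**Figure D2:**
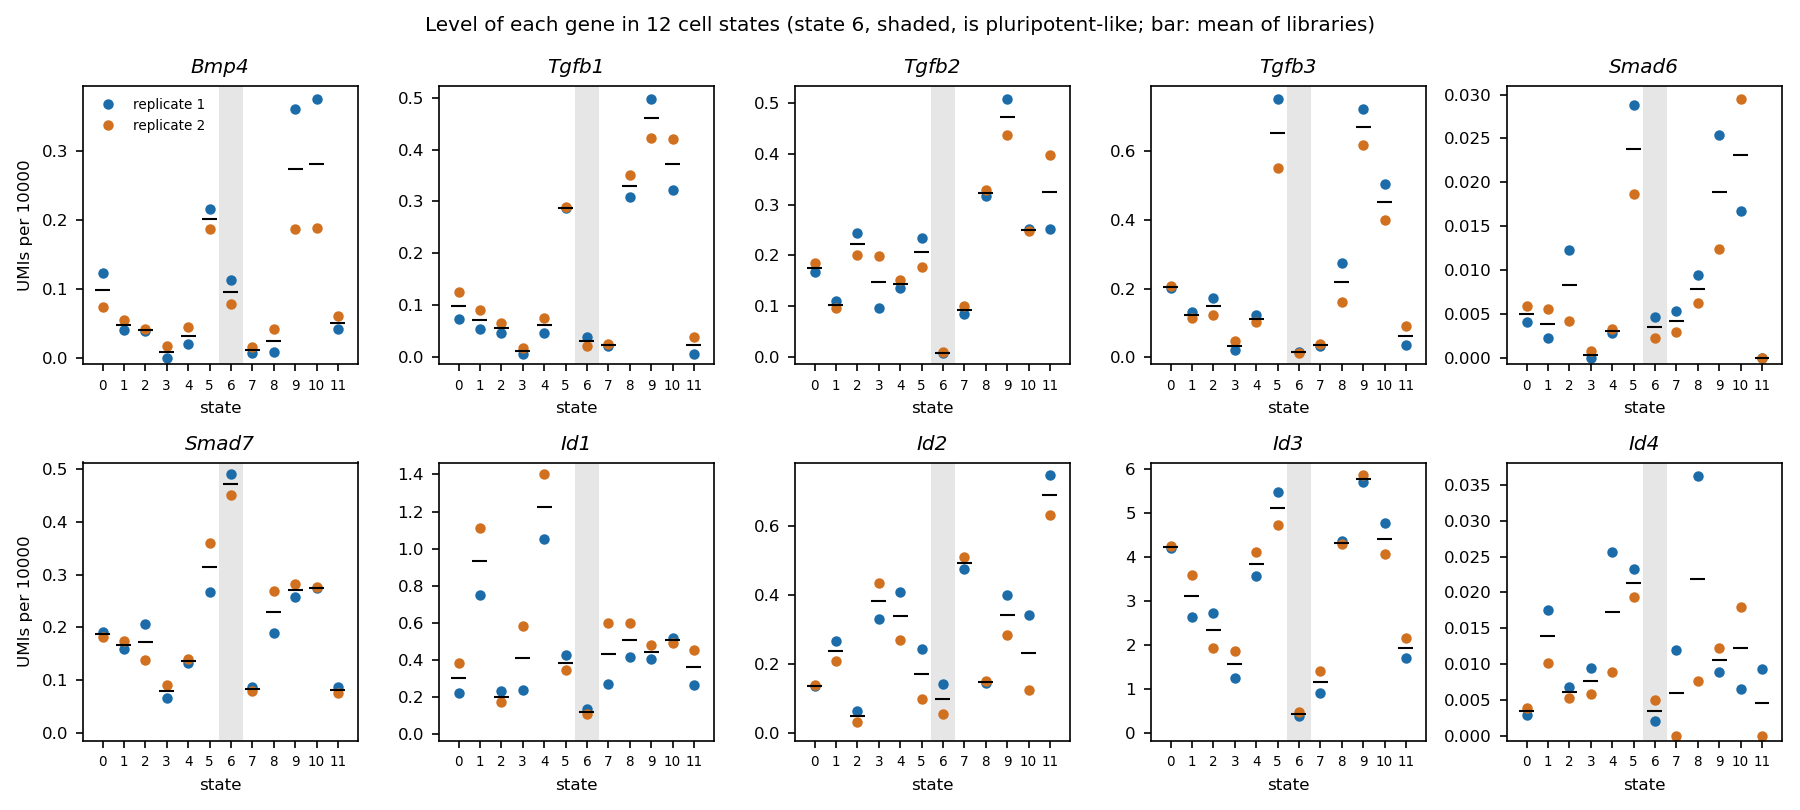
Level of the 10 genes in the 12 states with at least 30 cells in both libraries, in UMIs per 10000 (blue: replicate 1, orange: replicate 2, bar: mean of both). The ligand genes are highest in state 9 or 10, Smad7 in state 6, Id1 in states 4 and 1, and Id2 in state 11.

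Smad7, the inhibitor of both branches, was at 0.491 and 0.451 in pluripotent-like cells, against 0.182 and 0.179 in other cells. The difference was 1.03 on the log2 scale (SE 0.09, adjusted p = 6.7e-06, limma), and both pluripotent-like values were above those of every other state. State 5 came next (0.267 and 0.36), overlapping states 10 and 9. The lowest were states 7, 11 and 3, all under 0.1 in both libraries and not separable from one another. With each cell thinned to 3000 UMIs, so that depth was equal, a Smad7 UMI was found in the pluripotent-like state in 17.1% of cells (95% exact binomial interval 11.4 to 24.2, replicate 1) and 12.3% (9.19 to 15.9, replicate 2), against 4.69% and 4.85% of other cells. Before thinning these shares were 68.5% and 57.3%, against 22.2% and 20%. In the 13 macrophage-like cells (state 15) no Smad7 UMI was found among 122646, which allows a level of up to 0.245, counting error only. That limit is above the level in other cells, so a lack of Smad7 is not shown.

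Smad6, which acts mainly against BMP signals, was rarely detected, with 47 UMIs in replicate 1 and 41 in replicate 2 over all cells. Its highest levels among the 12 states were in states 5 (0.0288 and 0.0187), 10 (0.0167 and 0.0295) and 9 (0.0254 and 0.0124). These were also the highest of the 12 for Bmp4. The Smad6 levels rested on 13 and 4 UMIs in state 5, 3 and 5 in state 10, and 11 and 3 in state 9. With summed or thinned UMIs state 10 was the highest, so the order is uncertain. No Smad6 UMI was found in state 11 among 1712256 UMIs, which allows up to 0.0175. Its log2 fold in pluripotent-like cells was -0.07 (SE 0.04, adjusted p = 0.23, limma, without the minimum level).

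Id3 showed the largest difference of the 7 tested genes on this scale, although with a pseudocount of 0.01 Tgfb2 (-3.53) and Tgfb3 (-3.30) passed it (-2.98). Its level was 0.389 (replicate 1) and 0.471 (replicate 2) in the pluripotent-like state, against 3.43 and 3.46 in other cells (log2 fold -2.74, SE 0.10, adjusted p = 3.3e-08, limma). Among the 12 states with at least 30 cells in both libraries it was lowest in the pluripotent-like one, the nearest being state 7, with raised S-phase markers, at 0.919 and 1.42. Epithelial-like cells, of which there were 64 and 4, had 0.573 and 0.22. State 9 was the highest of the 12, at 5.7 and 5.88, followed by state 5 at 5.49 and 4.73. States 10 and 8 overlapped. After thinning, an Id3 UMI was found in the pluripotent-like state in 11.6% of cells (replicate 1) and 12% (replicate 2), against 45.8% and 44.8% of other cells. In macrophage-like cells, which served as a background, there were 0 Id3 UMIs among 122646, which allows a level of up to 0.245, below both pluripotent-like values.

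Id1 was at 0.132 and 0.105 in pluripotent-like cells, against 0.45 and 0.66 in other cells (log2 fold -1.57, SE 0.14, adjusted p = 7.5e-06, limma). The 2 libraries differed here, with a log2 fold of -1.25 in replicate 1 and -1.89 in replicate 2. Among the 12 states it was highest in state 4, led by Perp and Krt19, at 1.05 and 1.4, and in state 1 at 0.751 and 1.11, and these overlapped. The remaining 10 of the 12 were at 0.598 or below in both libraries, among them state 10, which shared the raised mitosis markers of state 1, at 0.519 and 0.489. The 30 cells with most Id1 UMIs, 1% of the other cells of replicate 1, held 21.6% of its UMIs, and 162 of 7131 genes were more concentrated. In replicate 2 the top 36 cells held 15.3%, with 617 genes more concentrated. Single cells held up to 83 Id1 UMIs in replicate 1 and 25 in replicate 2. For Tgfb1 the same number of cells held 20.2% and 18.4%, for Id2 18.3% and 16.7%, for Tgfb3 17.6% and 18.2%, and for Id3 9.47% and 9.71%, so Id1 led these genes in replicate 1 but not in replicate 2.

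Id2 followed another order. It was at 0.143 and 0.0565 in pluripotent-like cells, against 0.282 and 0.247 in other cells (log2 fold -0.90, SE 0.12, adjusted p = 1.1e-04, limma). The highest level among the 12 states was in state 11 (0.748 and 0.633), then state 7 (0.477 and 0.509), and neither overlapped its neighbours in the order. State 2, led by Rarres2 and Sostdc1, was the lowest of the 12, at 0.0636 and 0.0344, and its range overlapped that of the pluripotent-like state. Id2 was the one Id gene that was high in macrophage-like cells, at 5.5 in replicate 1 (4 cells) and 3.47 in replicate 2 (9 cells), above every state with at least 30 cells in both libraries. Id4 was rarely detected, with 81 UMIs in replicate 1 and 49 in replicate 2 over all cells, and each state overlapped its neighbour in the order. Its log2 fold was -0.11 (SE 0.06, adjusted p = 0.25, limma, without the minimum level).

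The genes fell into different orders over the states. Over the 24 profiles of 12 states and 2 libraries, Pearson's r of log2(level + 0.1) was 0.90 for Tgfb1 with Tgfb3, 0.83 for Id3 with Tgfb3, 0.55 for Id1 with Id3 and -0.01 for Id2 with Id3. Each state gives 2 of the 24 points and each library 12, so the points share cells of like origin and are not independent, and the r values are descriptions. Id3 and Smad7 had r = 0.06 over all profiles but 0.86 over the 22 profiles without the pluripotent-like state. Outside that state, Smad7 was high where Id3 was high, and in it Smad7 was at its highest with Id3 at its lowest.

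**Figure D3:**
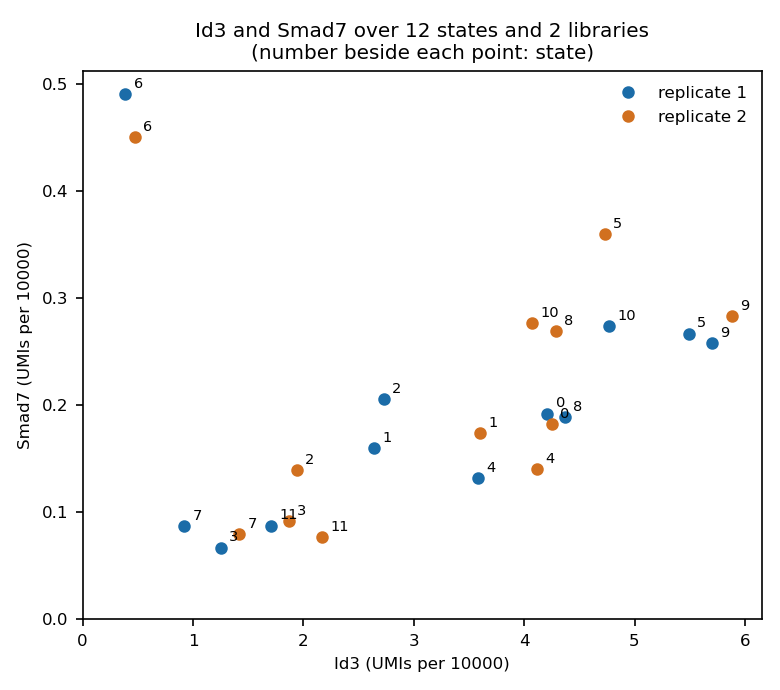
Smad7 against Id3 level, in UMIs per 10000, in 12 states (numbers) and 2 libraries (colours). All profiles but the 2 of state 6 lie along a rising band, and those of state 6 lie apart at the upper left.

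Genes whose profile was most like that of a member, by the same r, were named by rule. For Id3 they were Chp1, Lgals1 and Sh3glb1 (each 0.96), for Tgfb3 Slc39a13, Col5a2 and Pofut2 (each 0.97), for Tgfb1 Tacc1 (0.97), Tram2 and Zcchc24 (each 0.96) and for Smad7 Prrc1 (0.94), Ncoa3 (0.92) and Klf4 (0.91). Klf4 is one of the reprogramming factors. Id1 and Id2 had no gene as near: Limd2 reached 0.84 with Id1 and Lmo1 0.81 with Id2.

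Within single cells of a state, thinned to 3000 UMIs, Id3 was found more often in cells with an Id1 UMI in states 1 and 2. In state 1, 56.9% of the cells with an Id1 UMI had an Id3 UMI in replicate 1, against 36.3% of those without, and 73.5% against 40.3% in replicate 2. In state 2 it was 76% against 39.5%, and 76.9% against 32.4%. The 95% exact binomial intervals did not overlap in any of these 4 pairs, the closest being 44 to 69.2 against 31.4 to 41.5 in state 1 of replicate 1. In state 0 the pair was 52.4% against 56.9% in replicate 1 and 73.4% against 56.7% in replicate 2, so the libraries differed in direction. In pluripotent-like cells, with 10 and 11 cells with an Id1 UMI, it was 10% (0.253 to 44.5) against 11.8% (6.88 to 18.4) in replicate 1 and 54.5% (23.4 to 83.3) against 10.8% (7.85 to 14.4) in replicate 2. Pairs with Id2 did not show this in state 1. There Id3 was found in 36.4% of cells with an Id2 UMI against 39.7% of those without in replicate 1. In replicate 2 it was 52.2% against 48.3%. Id2 was found in 9.23% of cells with an Id1 UMI against 7.32% in replicate 1, and 6.06% against 3.67% in replicate 2. The intervals overlapped in each of these pairs. Cells are not replicates and no test was made.

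**Figure D4:**
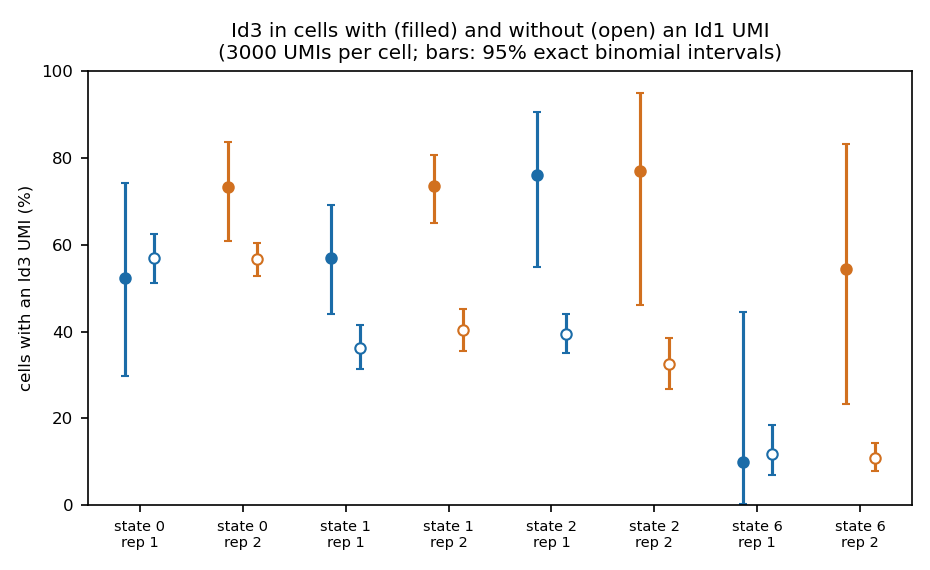
Share of cells with an Id3 UMI among cells with (filled) and without (open) an Id1 UMI, in 4 states and 2 libraries (blue: replicate 1, orange: replicate 2), thinned to 3000 UMIs per cell, with 95% exact binomial intervals. The filled points lie above the open ones in states 1 and 2 in both libraries.

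The other genes of the pathways were taken as a list of 83 genes, of which 79 were in the table and 40 reached the minimum level. In pluripotent-like cells 32 of the 40 were lower, 4 higher and 4 did not pass (limma), with a median log2 fold of -1.19 against -0.16 over all genes tested. Over all genes, 46.2% were lower and 31.5% higher. The minimum level, a mean over mostly other cells, favours genes that are lower in pluripotent-like cells, in this list as among all genes. Of the 20 ligand genes of the list in the table, only 3 were tested. Many of the 40 were under 0.1 in pluripotent-like cells and could only come out lower. Neither the counts by direction nor the median therefore show a decrease of the list as a whole. Among receptors 8 of 10 were lower: Tgfbr2, the ligand-binding TGF-beta receptor, was at 0.0253 and 0.0114, against 0.32 and 0.266, a log2 fold of -1.73, and the BMP receptors Bmpr1a and Bmpr2 were at -1.33 and -1.29. Acvr2b, an activin receptor, was higher, at 0.342 and 0.361 against 0.0945 and 0.102. Its mean in other cells (0.0983) was under the minimum level. It entered through the pluripotent-like cells and could only come out higher. All 3 Smads that transduce the signal and were tested, Smad1, Smad4 and Smad5, were lower (-0.54, -0.70 and -1.30).

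Of the 17 secreted antagonists and latency proteins in the table, 9 reached the minimum level. All 9 were lower, led by Fstl1 (-3.22), Nbl1 (-2.50) and Ltbp3 (-1.89). Over all genes tested, 46.2% were lower and 77.7% passed in either direction. All but Fstl1 (0.327 and 0.286) were under 0.1 in pluripotent-like cells. They entered the test only through the other cells, so their direction was set by the minimum level. Of the 8 known TGF-beta-induced genes 7 were lower, with Thbs1 at -3.98 and Tgfbi at -3.55, and Skil at -0.02 (adjusted p = 0.91, limma). Thbs1 was at 0.12 and 0.108 in pluripotent-like cells and at 4.25 and 2.52 in others. Fibroblast markers moved with these genes: all 10 of the 10 tested were lower in pluripotent-like cells, and the summed level of the 11 markers in the list was 3.74 and 2.99 there, against 38.7 and 24.8 in other cells. Their part in the result was not tested. The intracellular inhibitors were mixed, with 2 of 7 higher, Tgif1 (1.46) and Tgif2 (0.26), 3 lower and 2 not past the threshold. Lefty1, an inhibitor of Nodal signalling, was higher, at 0.176 and 0.607 against 0.115 and 0.166 (0.88, SE 0.20, adjusted p = 0.0027, limma). Of the E proteins, Tcf4 (-1.74) and Tcf12 (-1.49) were lower, whereas Tcf3 was at 0.573 and 0.528 against 0.513 and 0.503 (0.10, adjusted p = 0.34, limma).

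**Figure D5:**
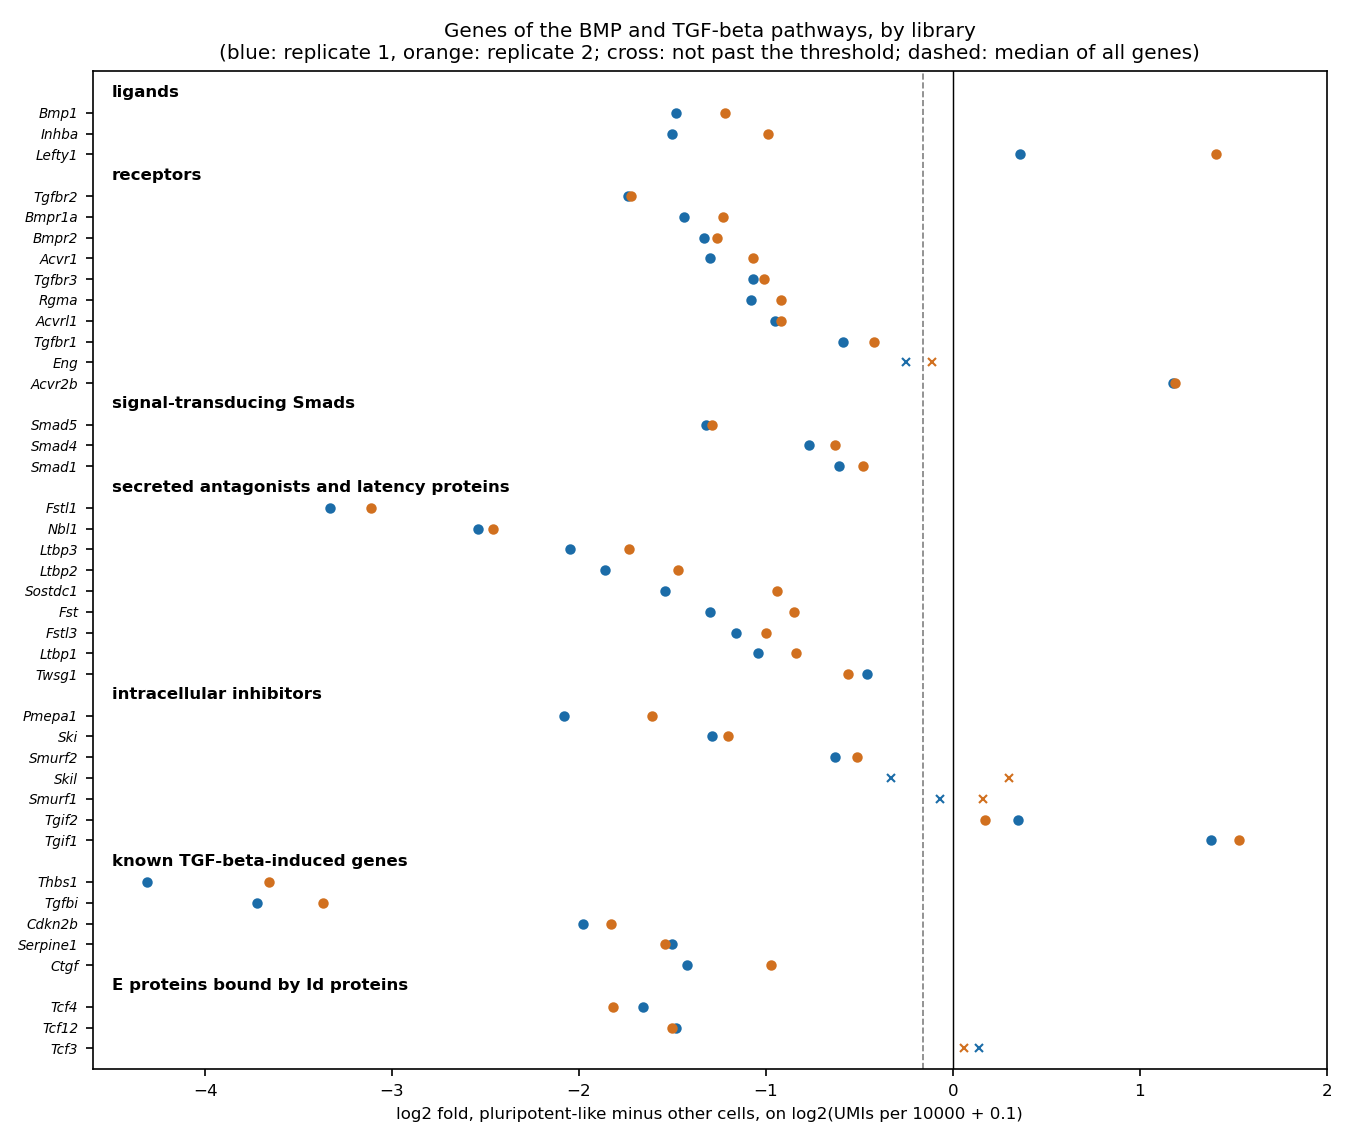
Log2 fold, pluripotent-like minus other cells, of 40 pathway genes in each library (blue: replicate 1, orange: replicate 2), grouped by role, with genes of 2 roles shown once. Crosses mark genes not past the threshold, and the dashed line the median of all genes (-0.16).

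Depth differed between the classes, and the values were set per 10000 UMIs of each cell. Taken as UMIs per cell without that scaling, the median log2 fold of all genes rose from -0.16 to 0.47, a shift of 0.62, and the share of the calls that were higher rose from 40.6% to 69.3%. All 7 genes kept their direction and their call. Bmp4 was at 0.295 and 0.212 UMIs per cell in pluripotent-like cells and at 0.145 and 0.107 in others, where the ranges did not overlap. Relative to the median, Id3 was at -2.46 and Smad7 at 1.40 without scaling, against -2.59 and 1.18 with it.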

How the data were processed

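Single cells of 2 libraries at day 16 were counted by droplet 3′ RNA-seq. Per the labels and the study's methods, the authors used Cell Ranger (2.1.1) with mm10 and Seurat, kept cells by genes detected and mitochondrial RNA, scaled and log-transformed. The deposited values are natural log values, ln(1 + UMIs per 10000), checked here: each cell summed to 10000 and 100% of values were whole multiples of the cell's smallest value (tolerance 0.01), which gave the UMIs. Cells had 1508 to 5987 genes and 4753 to 60990 UMIs. Doublets were not called here, and no column was left unassigned (0 columns).

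Cells were clustered on 2000 variable genes, 30 components, 15 neighbours and Leiden resolution 1 (scanpy 1.11.5, leidenalg 0.10.2, scikit-learn 1.9.0), leaving out 700 genes. A state took a class name where at least 3 and 50% of its markers were 2-fold higher. Differences were tested with limma (3.58.1, R 4.3.3) on log2(mean per 10000 + 0.1), 1 profile per class or state and library, with library as a term and Benjamini-Hochberg adjustment over the 7131 genes with a mean of at least 0.1, at 0.05. States come from other genes of the same cells, so tests measure repeatability between libraries. Fits were also run on simulated profiles with equal depth in all cells and no effect shared within a library. Those runs therefore do not cover the differences in depth or between libraries in these data. A count of 0 was read against 3 counts; intervals and limits cover counting error only. All 10 members were named, with the pathway list and its 3 largest changes per role. Members, lists and markers were chosen with earlier results of these data known. Alternatives were pseudocounts, filters, scaling, clustering, thinning and cell subsets. Other steps used Python 3.11.15, numpy 2.4.6, scipy 1.17.1 and pandas 2.3.3.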

Additional observations from a re-analysis of the deposited data

How the results depend on the processing

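All 7 tested genes kept their direction and call under each of 15 alternatives for pluripotent-like against other cells, and under each of 10 for the other states. Of the 15, resolution 2 and clustering with the members allowed gave the same class sizes and folds as the main setting. For Tgfb1, Tgfb2 and Tgfb3, and for Id2 by its mean, the minimum level set the direction. Its repeat under settings with that minimum therefore adds no support. The log2 folds ranged from -2.98 to -1.64 for Id3, -2.12 to -0.47 for Id1 and -1.44 to -0.20 for Id2. They ranged from -3.53 to -0.25 for Tgfb2, -3.30 to -0.28 for Tgfb3 and -1.97 to -0.15 for Tgfb1. For Smad7 they ranged from 0.32 to 1.87, so sizes depended on the setting. The smallest of these sizes came from a pseudocount of 1. For Smad7 the largest came from UMIs per cell without scaling, and a pseudocount of 0.01 gave 1.34. UMIs per cell without scaling and limma trend were chosen after seeing the data. With 1 library at a time the log2 fold lay between -2.85 and -2.64 for Id3, -1.89 and -1.25 for Id1, -1.15 and -0.65 for Id2, and 0.98 and 1.07 for Smad7, -1.53 and -1.44 for Tgfb2, and -1.70 and -1.34 for Tgfb3. The count of genes called ran from 4458 to 7938 for the first comparison. For the other states, 6190 genes were called and 4069 after thinning to 3000 UMIs, and the cause was not tested. Without the replicate block, pairing by library ignored, 5197 genes were called in place of 5541, and the same number of members, 7. Depth limits Id4 and Smad6, which had under 100 UMIs per library, and the small states.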

Other observations

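Of the states with under 30 cells in a library, state 13, led by Trf and Saa3, held 41 cells of replicate 2 and 1 of replicate 1. In replicate 2 its Id1 level was 2.49 and its Bmp4 level 0.859, both above those of every state with at least 30 cells in both libraries. As nearly all of its cells came from 1 library, the state and the library cannot be told apart. Macrophage-like cells also had Tgfb1 at 2.59 in replicate 1 and 1.27 in replicate 2, on 9 and 10 UMIs.

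Pluripotent-like cells were also split by whether a Dppa3 UMI, of a gene of naive pluripotency that took no part in the clustering, remained after thinning to 3000 UMIs. Before thinning, Id3 had 41 UMIs in the 34 cells with one and 130 in the 112 without in replicate 1, and 83 in 70 cells and 473 in 321 in replicate 2. Smad7 had 45 and 154 UMIs in the same cells of replicate 1, and 101 and 348 in those of replicate 2. These groups of cells are not samples and no test was made.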
